A study of Mus musculus with 12 samples.

Results

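The 7 pericyte genes Cspg4, Rgs5, Kcnj8, Abcc9, Mcam, Ndufa4l2 and Heyl were taken by symbol from the deposited gene counts of mouse gut stromal cells, where all 7 were found among 32052 genes and all 7 passed the filter on low counts. The genes were listed by name for their known expression in pericytes, with earlier results of these data known. RNA was sequenced as total RNA, with enzymatic removal of ribosomal RNA, from sorted cells of C57Bl6 background mice aged 8 to 12 weeks. All cells were negative for the epithelial protein EPCAM and the leukocyte protein CD45. They came from the small intestine or the colon and were negative or positive for GFP from an Rspo3-GFP transgene, which marks cells that use the gene of the Wnt amplifier R-spondin 3. The 4 groups were small intestinal GFP-negative, small intestinal GFP-positive, colonic GFP-negative and colonic GFP-positive cells, with 3 libraries each. The labels do not say whether the libraries of a group came from separate mice, so the p-values measure the spread between these libraries, which may be technical. Replicate 3 carries the same sample number in all 4 groups, and colonic replicate 2 in both GFP fractions. What the number stands for is not given, and the comparisons between tissues may therefore not be between independent samples. Cells sorted on CD31, which the design also names, were not analysed here.

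Pericytes are contractile cells wrapped around capillaries and small venules, inside the basement membrane they share with the endothelium. With vascular smooth muscle cells they form the mural cells, which endothelial cells recruit with platelet-derived growth factor B and keep in their mature state partly through Notch3. In the gut wall they lie in the capillary beds of the villi, around the crypts and in the submucosa. None of the 7 genes is restricted to pericytes. Cspg4, Mcam, Rgs5, Kcnj8 and Abcc9 are also used by vascular smooth muscle, and Mcam by endothelium.

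Library totals ran from 6489835 to 12286054 counts. Rspo3 separated the sorted fractions in both tissues, at 4.5 to 13.7 CPM (counts scaled to a common library size) in small intestinal GFP-negative and 191 to 196 CPM in GFP-positive libraries, and at 2.28 to 6.51 and 117 to 161 CPM in the colon. A pair of libraries stood apart within their groups. Small intestinal GFP-negative replicate 3 had a summed level of 2828 CPM over 7 leukocyte markers, against 26 to 89.5 CPM in the other small intestinal libraries. Colonic GFP-positive replicate 3 had 1667 CPM over 8 epithelial markers, against 306 and 592 CPM in the other libraries of its group. Colonic GFP-negative libraries had 1039 to 2402 CPM over these markers. Results were also computed without this pair of libraries. Small intestinal GFP-negative replicate 2, which was left out only in the fits without each library in turn, differed from its group in the fibroblast sum. It had 23029 CPM over 8 fibroblast markers, against 7920 and 9320 CPM.

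The pericyte genes did not share 1 pattern across the sort. In the small intestine Cspg4, Mcam and Ndufa4l2 were lower in GFP-positive than in GFP-negative cells, while Rgs5, Heyl, Abcc9 and Kcnj8 did not pass the test. In the colon Cspg4 and Rgs5 were lower in GFP-positive cells and the other 5 did not pass. Cspg4 was the member called in both tissues, and in this fit, which does not pair the fractions, no member was called higher in GFP-positive cells in either. With the replicate number as a block, Cspg4 and Mcam stayed called in the small intestine, Ndufa4l2 did not and Kcnj8 was called higher, and in the colon Cspg4 alone of the 7 was called. At an unadjusted p under 0.05, Kcnj8 was higher in the small intestine and no member was in the colon; DESeq2 also called Kcnj8 higher in the small intestine (adjusted p = 0.00667). A call is an adjusted p under 0.05 over 16757 genes in edgeR's quasi-likelihood test. Of all genes tested, 6.63% were called lower and 4.24% higher in the small intestine, beside 3 and 0 of the 7 members. In the colon 4.06% were called lower and 4.62% higher, beside 2 and 0 of the 7. The median log2 difference of the 7 genes was -1.29 for the small intestine and -0.69 for the colon, against -0.03 over all genes in each. The groups did not overlap, with all GFP-positive libraries lower, for 3 members in the small intestine (12.3% of all genes) and for 3 in the colon (17.8%). In these bulk libraries, fewer cells that use a gene and less of its RNA per cell cannot be told apart.

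**Figure D1:**
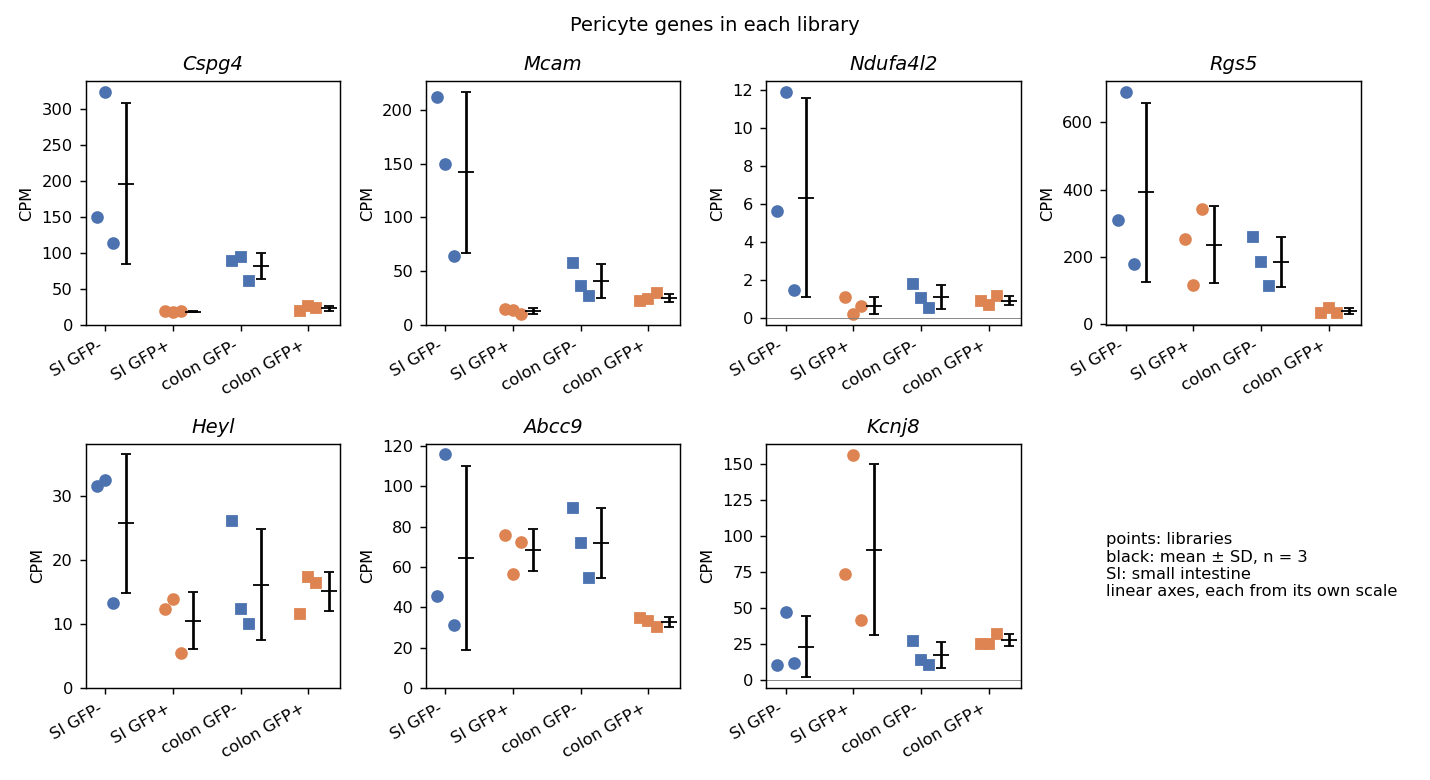
Level of each pericyte gene in each library, in CPM on linear axes with a scale of its own per gene. Points are libraries (blue GFP-negative, orange GFP-positive; circles small intestine, squares colon) and black bars are the mean ± SD of 3 libraries. Cspg4 lies lower in GFP-positive libraries of both tissues, Mcam in those of the small intestine, Rgs5 and Abcc9 in those of the colon, and Kcnj8 has its highest point, 157 CPM, in a small intestinal GFP-positive library.

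**Figure D2:**
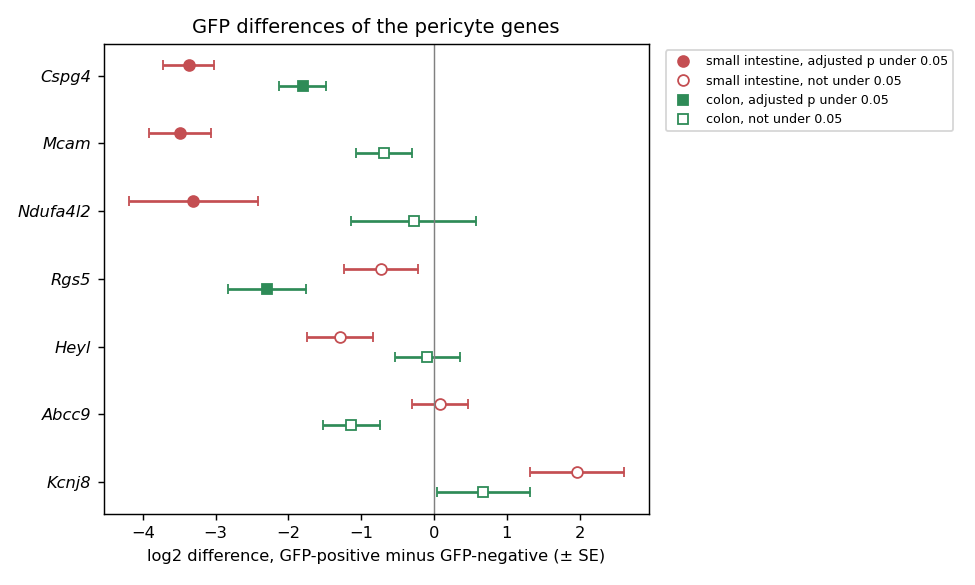
Log2 difference between GFP-positive and GFP-negative cells for each pericyte gene, with bars of 1 SE, in the small intestine (red circles) and the colon (green squares). Filled symbols have an adjusted p under 0.05 in the fit without a replicate block: Cspg4, Mcam and Ndufa4l2 in the small intestine, and Cspg4 and Rgs5 in the colon.

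Cspg4 and Mcam encode membrane proteins of the pericyte surface. Cspg4 (ENSMUSG00000032911, chromosome 9, 56865033 to 56899870, plus strand of GRCm38) encodes the chondroitin sulfate proteoglycan NG2, which binds growth factors and collagens. The bases upstream of Cspg4, the member called in both tissues, are shown from RefSeq (GRCm38.p6), at chr9:56864854-56865032 on the plus strand, with the 2 copies of the GC box CCGCCC in capitals.

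Cspg4: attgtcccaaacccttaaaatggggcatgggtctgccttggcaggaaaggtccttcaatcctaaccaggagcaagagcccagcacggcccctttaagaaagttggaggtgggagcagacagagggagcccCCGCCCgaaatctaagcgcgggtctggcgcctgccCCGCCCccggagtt

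Throughout, values of a group are given for replicates 1 to 3 in turn. Small intestinal Cspg4 was at 151, 324 and 115 CPM in the negative and 19.2, 17.7 and 20.0 CPM in the positive libraries. All GFP-negative libraries lay far above all GFP-positive ones, and the GFP-positive libraries differed little among themselves. The group means were 196 ± 112 and 19.0 ± 1.13 CPM (SD, n = 3), a log2 difference of -3.37 ± 0.35 (SE, adjusted p = 0.000201). In the colon Cspg4 was at 89.3, 95.2 and 61.7 CPM in the negative and 20.4, 26.4 and 23.5 CPM in the positive libraries. Again the groups did not overlap, and the log2 difference was -1.81 ± 0.33 (adjusted p = 0.00395). The difference between the tissues' effects did not pass the test (log2 1.57 ± 0.45, adjusted p = 0.0988); without small intestinal GFP-negative replicate 3 it did (1.84, adjusted p = 0.0313). Both GFP effects of Cspg4 kept their calls in each of the 12 fits that left out 1 library.

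Mcam (ENSMUSG00000032135, chromosome 9, 44134469 to 44142727, plus strand) encodes the adhesion molecule CD146, a co-receptor on mural and endothelial cells. Small intestinal libraries differed by sort, with Mcam at 213, 149.9 and 63.7 CPM in the negative and 14.6, 13.6 and 9.69 CPM in the positive libraries. The lowest GFP-negative library was still above every GFP-positive one, and the log2 difference was -3.49 ± 0.42 (adjusted p = 0.000517), which passed in all 12 fits without a library. In the colon Mcam was at 57.8, 36.1 and 26.9 CPM in the negative and 21.5, 23.9 and 29.3 CPM in the positive libraries, so that the groups overlapped. The colonic difference of -0.69 ± 0.39 did not pass (adjusted p = 0.378).

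Mcam was the member whose GFP effect differed between the tissues. The interaction, colon minus small intestine, was 2.80 ± 0.56 on the log2 scale (adjusted p = 0.0271), where 2.06% of all genes were called and 1 of 7 members was. Leaving out any of 7 libraries ended this call: small intestinal GFP-negative replicate 1 (adjusted p = 0.0554), GFP-positive replicates 1 and 3 (0.0597 and 0.0747), colonic GFP-negative replicates 2 and 3 (0.0835 and 0.0716) and colonic GFP-positive replicates 2 and 3 (0.0619 and 0.0665). The size stayed between 2.39 and 3.17 in the 12 fits. The antisense gene Gm10687 overlaps Mcam and was also lower in small intestinal GFP-positive cells (log2 -4.56 ± 1.01, adjusted p = 0.0116). Its 22, 22 and 21 counts in the GFP-negative libraries were few beside the 396 to 1770 of Mcam. Whether counting used strand is not given in the sources used here, so reads of the pair cannot be told apart.

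Rgs5 (ENSMUSG00000026678, chromosome 1, 169655501 to 169695813, plus strand) encodes a regulator of G protein signalling that speeds the return of G proteins to their resting state and so limits contraction signals. The 250 bases upstream of its start, at chr1:169655251-169655500 on the plus strand (RefSeq, GRCm38.p6), are shown because Rgs5 was called in the colon; none of the capitalised motifs lies in them.

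Rgs5: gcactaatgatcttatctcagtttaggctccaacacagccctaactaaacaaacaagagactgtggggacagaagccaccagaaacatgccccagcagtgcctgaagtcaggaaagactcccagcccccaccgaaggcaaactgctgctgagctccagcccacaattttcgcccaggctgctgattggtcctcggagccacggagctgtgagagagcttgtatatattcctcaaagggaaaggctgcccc

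In the colon Rgs5 was at 259.6, 183 and 112 CPM in the negative and 31.9, 47.4 and 33.6 CPM in the positive libraries. Every GFP-positive library was below every GFP-negative one, with a log2 difference of -2.30 ± 0.53 (adjusted p = 0.0193). Small intestinal Rgs5 was at 309, 690.4 and 178 CPM in the negative and 252, 116 and 341 CPM in the positive libraries. These groups overlapped, and the difference of -0.73 ± 0.51 did not pass (adjusted p = 0.437); without GFP-negative replicate 2, the highest library, it was -0.04. The interaction of -1.57 did not pass either (adjusted p = 0.35), so the tissues' effects on Rgs5 were not shown to differ. The colonic call was lost with the replicate block (-2.23, adjusted p = 0.0879). It was also lost without GFP-negative replicate 1 (adjusted p = 0.0687) or 2 (0.0539) and without GFP-positive replicate 1 (0.0865), 2 (0.053) or 3 (0.0698), with the log2 difference between -2.54 and -1.96 over the 12 fits.

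Kcnj8 and Abcc9 encode the 2 kinds of subunit of the vascular ATP-sensitive potassium channel: Kcnj8 the pore Kir6.1 and Abcc9 the sulfonylurea receptor SUR2. When opened by a fall in ATP or by vasodilators, the channel hyperpolarises mural cells and relaxes them. The genes are neighbours on the minus strand of chromosome 6, Kcnj8 (ENSMUSG00000030247) at 142564837 to 142571614 and Abcc9 (ENSMUSG00000030249) at 142587862 to 142702315, with 16247 bases and no annotated gene between them. Their upstream bases are shown because these genes are adjacent and their ratio separated the fractions, Kcnj8 at chr6:142571615-142571864 and Abcc9 at chr6:142702316-142702524, both read on the minus strand (RefSeq, GRCm38.p6). Capitals mark the core TGGGAA bound by RBPJ, the DNA-binding partner of Notch, and the GC box CCGCCC.

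Kcnj8: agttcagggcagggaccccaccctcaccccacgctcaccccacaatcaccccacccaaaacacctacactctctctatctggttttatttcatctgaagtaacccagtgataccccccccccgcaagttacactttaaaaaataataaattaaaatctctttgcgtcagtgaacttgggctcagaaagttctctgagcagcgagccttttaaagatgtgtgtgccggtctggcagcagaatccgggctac

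Abcc9: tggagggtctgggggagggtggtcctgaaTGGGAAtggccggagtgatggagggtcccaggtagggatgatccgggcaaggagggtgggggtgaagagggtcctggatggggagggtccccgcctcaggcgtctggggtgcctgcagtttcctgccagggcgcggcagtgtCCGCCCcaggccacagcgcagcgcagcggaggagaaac

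Kcnj8 was the member with the largest positive difference. Small intestinal Kcnj8 was at 10.2, 47.3 and 11.7 CPM in the negative and 73.6, 157 and 41.5 CPM in the positive libraries. Each GFP-positive library exceeded the GFP-negative library of the same number, but replicate 3 of the positive group lay below replicate 2 of the negative one. The log2 difference of 1.96 ± 0.65 did not pass in the main fit, which has no pairing (adjusted p = 0.0823). With the replicate number as a block, which pairs the fractions, it was 2.12 and passed (adjusted p = 0.00894). It also passed without GFP-negative replicate 2, at 3.05 (adjusted p = 0.00678). Without pairing, DESeq2 and limma on log2 TPM (transcript abundance corrected for length) called Kcnj8 higher too. In the colon Kcnj8 was at 27.3, 13.6 and 10.6 CPM in the negative and 24.9, 25.1 and 32.2 CPM in the positive libraries, with overlap and no call (0.68 ± 0.64, adjusted p = 0.651).

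Abcc9 was called in neither tissue in the main fit. Small intestinal Abcc9 was at 45.7, 116 and 31.3 CPM in the negative and 76.0, 56.4 and 72.4 CPM in the positive libraries. The GFP-positive libraries lay inside the range of the GFP-negative ones, and the difference of 0.08 ± 0.38 was not called (adjusted p = 0.934). It was 0.82 without GFP-negative replicate 2 (adjusted p = 0.042) and turned to -0.12 without GFP-negative replicate 1, -0.25 without GFP-negative replicate 3 and -0.005 without GFP-positive replicate 1. In the colon Abcc9 was at 89.3, 71.9 and 54.5 CPM in the negative and 34.8, 33.3 and 30.1 CPM in the positive libraries. These groups did not overlap, but the difference of -1.14 ± 0.39 did not pass (adjusted p = 0.103). It passed without small intestinal GFP-negative replicate 2 (adjusted p = 0.00572) or 3 (0.0284), which are not in the comparison and enter only the shared estimate of spread. Colonic Abcc9 was also called lower by DESeq2 and in the fit to only the colonic libraries. The overlapping antisense gene 5330439B14Rik had 0 to 3 counts per group.

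The ratio of the channel's subunit transcripts separated the sorted fractions. This quantity was chosen after the values were seen and has no test. Per transcript length, as TPM (transcript abundance corrected for length), the Kcnj8 to Abcc9 ratio was 0.457, 0.848 and 1.04 in small intestinal GFP-negative and 2.54, 6.84 and 1.58 in GFP-positive replicates. In the colon it was 0.76, 0.47 and 0.417 in GFP-negative and 1.70, 1.79 and 2.62 in GFP-positive replicates. All 6 GFP-positive libraries had more Kcnj8 than Abcc9 per length, and 5 of the 6 GFP-negative libraries had less. The ratio of the counts, which uses no length, was likewise without overlap, at 0.189 to 0.407 in the 6 GFP-negative and 0.573 to 2.78 in the 6 GFP-positive libraries. The other genes for such channels, Kcnj11 (Kir6.2) and Abcc8 (SUR1), had 0 to 25 counts per group and did not reach the filter; the 25 of Kcnj11 in small intestinal GFP-positive cells came from a single library.

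**Figure D3:**
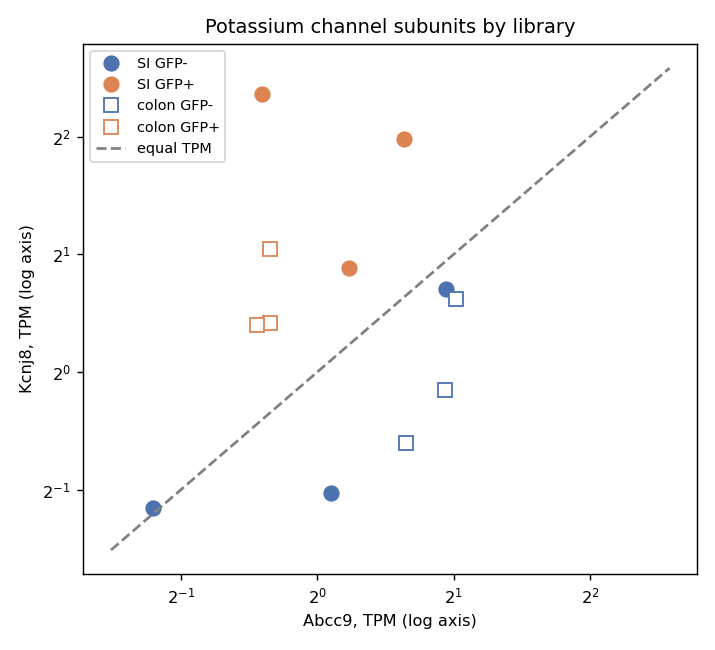
TPM of Kcnj8 against TPM of Abcc9 in each of the 12 libraries, both on log axes; the dashed line marks equal TPM. The GFP-positive libraries (orange) lie above the line, with ratios of 1.58 to 6.84, and the GFP-negative libraries (blue) near or below it, with ratios of 0.417 to 1.04.

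Ndufa4l2 (ENSMUSG00000040280, chromosome 10, 127514967 to 127517154, plus strand) encodes a mitochondrial protein related to the respiratory chain subunit NDUFA4 and known as a target of hypoxia signalling. Its values rest on few counts. In the small intestine there were 47, 114 and 9 counts in GFP-negative and 13, 2 and 5 counts in GFP-positive replicates, or 5.65, 11.9 and 1.45 against 1.08, 0.197 and 0.591 CPM. The groups did not overlap, though GFP-negative replicate 3 was close to the highest positive library, and the log2 difference was -3.31 ± 0.89 (adjusted p = 0.0306). The call was lost with the replicate block (-3.004, adjusted p = 0.109) and without GFP-negative replicate 1 (0.0546) or 2 (0.112) or GFP-positive replicate 2 (0.0913) or 3 (0.0843). It was also lost in the fit to only the small intestinal libraries and with limma on log2 TPM, and stood with DESeq2. In the colon there were 12, 9 and 4 counts in GFP-negative and 8, 5 and 10 counts in GFP-positive replicates, and no difference was detectable at this depth (-0.28 ± 0.86, adjusted p = 0.915).

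Ndufa4l2 is 1 of 4 measured genes for variants of these respiratory chain subunits. Ndufa4, the broadly used relative, did not pass in the small intestine (-0.30) or the colon (-0.32), nor did the cytochrome oxidase subunit Cox4i1 (0.14 and 0.02). Cox4i2, the isoform of that subunit found in pericytes and lung, had 27, 46 and 7 counts in small intestinal GFP-negative replicates and none in the GFP-positive ones. It was called lower (adjusted p = 0.00895) and was at least 31.2-fold lower, taking 3 counts in the whole group as the limit that its 0 allows for counting error alone. Of these 4 genes 2 were called lower in the small intestine and none in the colon, where none had an unadjusted p under 0.05 either. Ndufa4l2 overlaps Shmt2 on the opposite strand; Shmt2 was not called in either tissue (-0.07 and 0.39).

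Heyl (ENSMUSG00000032744, chromosome 4, 123233556 to 123249875, plus strand) encodes a transcriptional repressor of the hairy family that Notch receptors switch on in mural cells. Small intestinal Heyl was at 31.5, 32.4 and 13.2 CPM in the negative and 12.3, 13.8 and 5.43 CPM in the positive libraries. The groups overlapped by a single library on each side, and the difference of -1.29 ± 0.45 did not pass (adjusted p = 0.0939); without GFP-negative replicate 3 it was -1.60 and passed (adjusted p = 0.0338). In the colon Heyl was at 26.0, 12.3 and 10.01 CPM in the negative and 11.5, 17.3 and 16.3 CPM in the positive libraries. The colonic difference was -0.09 ± 0.45 (adjusted p = 0.953) and changed sign without GFP-negative replicate 1 (0.45) or GFP-positive replicate 1 (0.09).

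Between the tissues, 2 members were lower in colonic than in small intestinal GFP-negative cells, and 1 in GFP-positive cells. Within GFP-negative cells, where 2.01% of all genes were called lower in the colon, Mcam fell by 1.82 ± 0.39 on the log2 scale (adjusted p = 0.0255) and Cspg4 by 1.26 ± 0.32 (adjusted p = 0.0457). For both genes all 3 colonic libraries were below all 3 small intestinal ones, as held for 11% of all genes. The Cspg4 call was lost in 11 of the 12 fits without a library (adjusted p 0.0538 to 0.195), all but the one without small intestinal GFP-negative replicate 3. The Mcam call was lost without small intestinal GFP-negative replicate 1 (0.0748) and without colonic GFP-negative replicate 2 (0.107) or 3 (0.115). Both genes also lost their calls in the fit to only the GFP-negative libraries and with limma on log2 TPM. They kept them with DESeq2, with its size factors in edgeR and without a filter on low counts.

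Within GFP-positive cells, where 1.81% of all genes were called lower in the colon, Rgs5 fell by 2.65 ± 0.54 (adjusted p = 0.0167), from a mean of 237 ± 113 to 37.6 ± 8.52 CPM (SD, n = 3). The lowest small intestinal library, at 116 CPM, was above the highest colonic one, at 47.4 CPM, and 11.8% of all genes were without overlap in this direction. That call was lost without small intestinal GFP-positive replicate 1 (0.0514) or 3 (0.0571) and without colonic GFP-positive replicate 1 (0.0675) or 3 (0.0808). It was also lost without a filter on low counts and with limma on log2 TPM. It stood with DESeq2 and in the fit to only the GFP-positive libraries. The median log2 difference of the 7 genes was 0.31 in GFP-positive and -1.09 in GFP-negative cells. Cspg4 (0.31, adjusted p = 0.735) and Mcam (0.98, adjusted p = 0.23) had higher means in colonic GFP-positive cells and did not pass. Kcnj8 (-1.72, adjusted p = 0.195) and Abcc9 (-1.06, adjusted p = 0.177) were lower without overlap and did not pass. These are results of the main fit. In the fit to only the GFP-positive libraries Mcam and Abcc9 were called, and with DESeq2 Kcnj8 was. In the fit to all groups Abcc9 passed without small intestinal GFP-negative replicate 2 (0.0129). That library also decided the Abcc9 interaction, -1.22 with it (adjusted p = 0.329) and -1.96 without (0.00537), and the difference between GFP-negative cells, 0.16 with it (adjusted p = 0.897) and 0.90 without (0.0488).

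The order of the 4 groups differed from gene to gene. Cspg4 was ordered small intestinal GFP-negative, colonic GFP-negative, colonic GFP-positive, small intestinal GFP-positive, and no neighbours in this order overlapped. Mcam had the same order, with overlap between the colonic groups. For Rgs5 colonic GFP-positive cells were lowest and apart from the rest, which overlapped, and for Kcnj8 small intestinal GFP-positive cells had the highest mean, without overlap with either colonic group but with overlap with small intestinal GFP-negative cells. For Abcc9, Ndufa4l2 and Heyl all neighbours overlapped. Between genes, on the TPM scale, Mcam (mean 9.32) and Rgs5 (9.06) led in small intestinal GFP-negative cells, Rgs5 (6.16) and Kcnj8 (3.65) in small intestinal GFP-positive cells, Rgs5 (6.46) and Mcam (3.53) in colonic GFP-negative cells, and Kcnj8 (1.57), Mcam (1.52) and Rgs5 (1.24) in colonic GFP-positive cells.

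Across the 12 libraries the members fell on different lines. As a description over libraries that share groups and sorting, with no test, log2 CPM of Cspg4 and Mcam had a Pearson r of 0.90, Mcam and Ndufa4l2 of 0.88, and Mcam and Heyl of 0.83. Rgs5 and Abcc9 had an r of 0.80. Kcnj8 had an r of -0.50 with Cspg4, -0.49 with Mcam and 0.33 with its partner Abcc9. Among 11479 genes whose log2 CPM averaged 2 or more, the pattern most like the mean of the 7 was that of Des (0.95), which encodes the muscle intermediate filament desmin, followed by Wdpcp (0.92), Tfpt (0.92), Cdc42ep1 (0.91) and Rgs4 (0.91). For single members the nearest patterns were Notch3 for Cspg4 (0.97), Sbno2 for Mcam (0.98), Pja1 for Rgs5 (0.96), Mfge8 for Kcnj8 (0.95), Gm10134 for Abcc9 (0.94), Rgs4 for Ndufa4l2 (0.92) and Tinagl1 for Heyl (0.92).

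Of 21 other mural cell genes, 19 could be tested. Over all genes, 6.63% were called lower and 4.24% higher in the small intestine, and 4.06% lower and 4.62% higher in the colon. For the difference between the tissues' effects 2.06% were called. The same shares stand beside the counts of the lists that follow. In the small intestine 9 were called lower in GFP-positive cells, 1 higher and 9 not, and in the colon 4 lower, 3 higher and 12 not. Notch3 and Trpc6 were lower in both tissues. Notch3, the receptor that mural cells use for signals from endothelium, was at 175, 235 and 49.8 CPM in the small intestinal negative and 1.83, 1.28 and 0.827 CPM in the positive libraries (log2 -6.82 ± 0.78, adjusted p = 0.000553). In the colon Notch3 was at 61.6, 23.6 and 18.6 against 4.18, 2.77 and 1.37 CPM (-3.63 ± 0.68, adjusted p = 0.00702). Both pairs of groups were wide apart. Trpc6, a cation channel of smooth muscle, had 51, 122 and 13 counts in small intestinal GFP-negative and 1, 5 and 0 in GFP-positive replicates (adjusted p = 0.00743), and 100, 131 and 109 against 0, 2 and 6 counts in the colon (adjusted p = 0.00491).

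The strongest other small intestinal calls were Anpep (aminopeptidase N or CD13, -2.49, adjusted p = 0.000595), Art3 (a mono-ADP-ribosyltransferase family gene, -2.34, adjusted p = 0.000977) and Gja5 (connexin 40, adjusted p = 0.00166), all lower. Gja5 had 267, 210 and 50 counts in GFP-negative replicates and 1, 0 and 0 in GFP-positive ones, so no fold is given. Cox4i2, Lamc3, Itga7 and Des were the remaining genes called lower, and P2ry14, a receptor for UDP-sugars, was the gene called higher (1.21, adjusted p = 0.0357). Des lost its call without GFP-positive replicate 1 (adjusted p = 0.0526), Lamc3 with the replicate block (0.0731), and P2ry14 in 9 of the 12 fits without a library (up to 0.112, without GFP-positive replicate 3). The other 8 genes called lower kept their calls in all 12.

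In the colon Ednra, the endothelin A receptor, fell from 141 ± 10.7 to 15.6 ± 2.36 CPM (SD, n = 3; adjusted p = 0.00138). The transcription factor gene Ebf1 (1.87, adjusted p = 0.00241) and both subunits of the nitric oxide receptor, Gucy1a1 (1.54, adjusted p = 0.00359) and Gucy1b1 (1.62, adjusted p = 0.0019), were higher in GFP-positive cells. These 4 calls stood in all 12 fits without a library. Pdgfrb, the receptor for platelet-derived growth factor B, fell from 227 ± 11.8 to 79.3 ± 5.01 CPM (adjusted p = 0.0166), a call lost in 5 of the 12 fits (up to 0.0789, without colonic GFP-positive replicate 2). In the small intestine Pdgfrb overlapped between the groups at 237 ± 153 and 153 ± 29.98 CPM and did not pass (adjusted p = 0.303).

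The GFP effects of 3 other mural cell genes differed between the tissues, Ednra (interaction -2.79, adjusted p = 0.0424), Ebf1 (1.98, adjusted p = 0.0369) and Itga7, which encodes integrin alpha 7 (3.47, adjusted p = 0.0424). Of 12 fits that each left out a library, 10, 9 and 8 lost these calls, with values up to adjusted p = 0.107 without small intestinal GFP-negative replicate 1, 0.105 without colonic GFP-negative replicate 3 and 0.117 without colonic GFP-negative replicate 2. With the replicate block Ednra (0.139) and Itga7 (0.154) lost them too. Trpc6, Lamc3, Itga7, P2ry14 and Pdgfrb were chosen for mention after their values were seen.

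**Figure D4:**
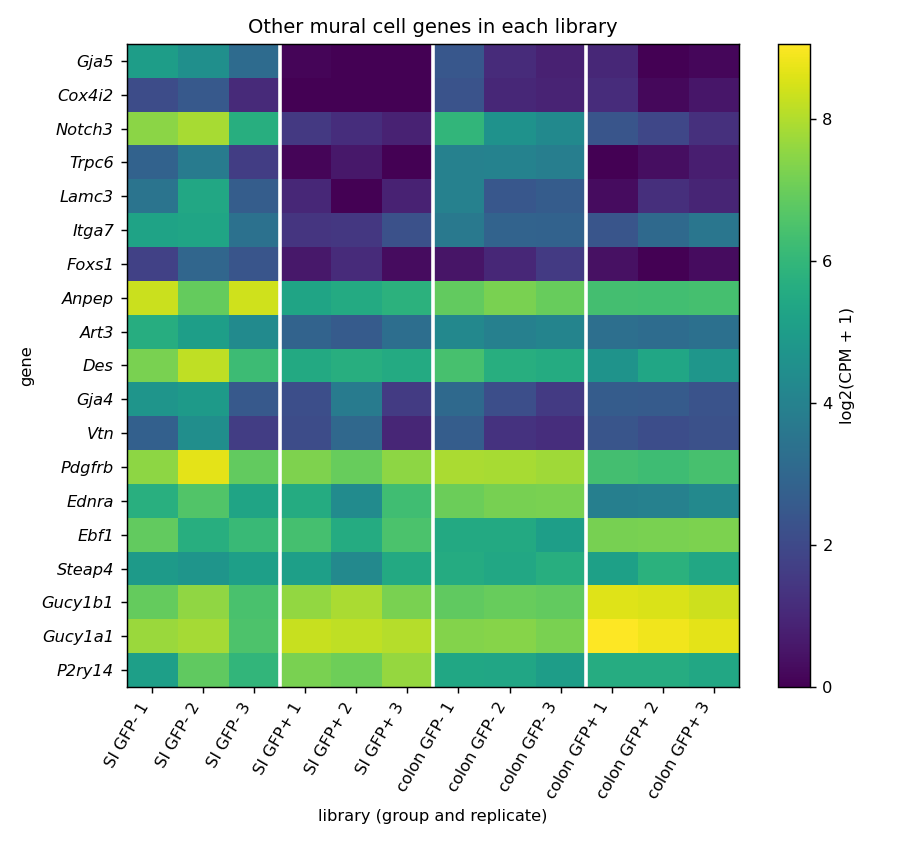
Level of 19 other mural cell genes in the 12 libraries as log2(CPM + 1), ordered by their small intestinal GFP difference, with white lines between groups. The rows from Gja5 to Des are darker in small intestinal GFP-positive libraries, Ednra and Pdgfrb are darker in colonic GFP-positive libraries, and the rows of Gucy1a1 and Gucy1b1 are brightest in colonic GFP-positive libraries.

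The relatives of single members moved in more than 1 direction. Of 7 tested regulators of G protein signalling from the R4 family, 2 were lower in the small intestine: Rgs4 (-4.65, adjusted p = 0.00429) and Rgs2 (-1.40, adjusted p = 0.0152). In the colon Rgs2 (-2.03, adjusted p = 0.00213) was lower along with Rgs5, while Rgs3 (1.14, adjusted p = 0.0397) and Rgs8 (63 counts against none, at least 18.7-fold, adjusted p = 0.0337) were higher. Rgs4 and the colonic call of Rgs2 stood in all 12 fits without a library. Small intestinal Rgs2 was lost without GFP-positive replicate 3 (0.0581), and Rgs3 and Rgs8 in 6 fits each (up to 0.131 without colonic GFP-positive replicate 2, and 0.114 without replicate 1). Rgs8 was also lost with the replicate block (0.113). Of 13 Notch receptors, ligands and targets, Heyl among them, 3 were lower in the small intestine: Notch3, the ligand Jag1 (-2.52, adjusted p = 0.00237) and the target Hey2 (-3.93, adjusted p = 0.00743). In the colon Notch1 (2.72, adjusted p = 0.00139), the ligand Dll4 (2.65, adjusted p = 0.0322) and the target Hey1 (2.57, adjusted p = 0.0141) were higher and Notch3 was lower. Dll4 was lost in 5 of the 12 fits without a library (up to 0.117, without colonic GFP-negative replicate 2) and Hey1 without colonic GFP-negative replicate 2 (0.0675) or 3 (0.0639). Heyl did not pass in either tissue.

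Of 14 signals of pericyte recruitment, 2 were higher and 2 lower in small intestinal GFP-positive cells, beside 4.24% and 6.63% of all genes. Pdgfb, the endothelial ligand of Pdgfrb, fell from 34.1 ± 15.1 to 1.74 ± 1.64 CPM (SD, n = 3; adjusted p = 0.00193), and Cdh2, the N-cadherin of endothelial-pericyte contacts, from 33.1 ± 13.96 to 1.37 ± 1.13 CPM (adjusted p = 0.00512). The ligands of the Tie2 receptor, Angpt1 (1.55, adjusted p = 0.0179) and Angpt2 (2.01, adjusted p = 0.0212), were higher. In the colon 5 were higher, namely the receptors Tek, Tie1, S1pr1 and Tgfbr2 and the ligand Tgfb1, by 1.09 to 3.59 on the log2 scale. Cdh2 and Pdgfrb were lower there. Pdgfb, small intestinal Cdh2, Tek, S1pr1 and Tgfb1 kept their calls in all 12 fits without a library. Angpt1 was lost without small intestinal GFP-negative replicate 3 (0.0528) or GFP-positive replicate 3 (0.0665), Angpt2 in 4 fits (up to 0.0749, without GFP-positive replicate 1) and colonic Cdh2 without GFP-positive replicate 1 (0.0507). Tie1 was lost in 5 fits (up to 0.102, without colonic GFP-negative replicate 2) and Tgfbr2 in 3 (up to 0.0654, without colonic GFP-negative replicate 3). Tie1, Tgfbr2 and Pdgfrb were picked after their values were seen.

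Markers of other cells that use some of the same genes moved with the sort. Over 10 smooth muscle markers the summed level was 1883 to 4901 CPM in small intestinal GFP-negative and 1262 to 1448 CPM in GFP-positive libraries, with 7 of 10 lower. In the colon it was 3679 to 4676 against 789 to 917 CPM, with 9 of 10 lower. Over 11 blood endothelial markers the sum was 923 to 3270 CPM in small intestinal GFP-negative and 321 to 965 CPM in GFP-positive libraries, with 9 of 11 lower. In the colon it was 216 to 909 against 765 to 868 CPM, with 4 lower and 2 higher. The 2 higher, Kdr and Emcn, made most of the colonic GFP-positive sum, at means of 627 and 141 CPM. They also made most of the small intestinal GFP-positive sum, at means of 502 and 130 CPM. In the colon 8 of the 11 markers were lower without overlap (17.8% of all genes) and 2 higher. The lymphatic sum was higher in GFP-positive libraries of both tissues (200 to 589 against 4302 to 14985 CPM, and 205 to 335 against 18003 to 21049 CPM), with 6 of 7 markers higher in each.

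The fibroblast sum was 7920 to 23029 CPM in small intestinal GFP-negative and 39223 to 60124 CPM in GFP-positive libraries, with 7 of 8 markers higher, and 25111 to 27651 against 19313 to 23881 CPM in the colon, with 1 of 8 lower. The enteric glia sum was 234 to 547 against 10.2 to 22.4 CPM in the small intestine, with 7 of 8 lower, and 54.5 to 136 against 10.5 to 36.1 CPM in the colon, with 4 lower. The epithelial sum was 229 to 761 against 12.1 to 17.7 CPM in the small intestine, with 7 of 8 lower, and 1039 to 2402 against 306 to 1667 CPM in the colon, with none called (1 at an unadjusted p under 0.05). Over 5 markers of interstitial cells of Cajal it was 73.9 to 96.5 against 73.0 to 134 CPM in the small intestine, with 1 higher and 1 lower, and 145 to 241 against 110 to 165 CPM in the colon, with 1 higher and 3 lower. Over 8 markers of all endothelium it was 505 to 1923 against 459 to 1956 CPM in the small intestine, with 2 lower, and 131 to 477 against 1570.4 to 1834 CPM in the colon, with 6 higher and 1 lower. The leukocyte sum in the colon was 149 to 301 against 355 to 397 CPM, and of 5 tested leukocyte markers 1 was called lower in the small intestine and none in the colon (0 at an unadjusted p under 0.05). Of the defining markers, the blood endothelial Sox17, the glial Foxd3 and the leukocyte Cd3e were at 0 in small intestinal GFP-positive libraries. The part of these cell types in the differences of Cspg4, Mcam, Rgs5 and the other pericyte genes was not tested. Without the 2 libraries that stood apart, each of the calls among the 7 genes stood, and Heyl was called in addition in the small intestine (-1.60, adjusted p = 0.0472); the small intestinal calls of Rgs2 (0.0627) and Angpt2 (0.0879) were lost.

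**Figure D5:**
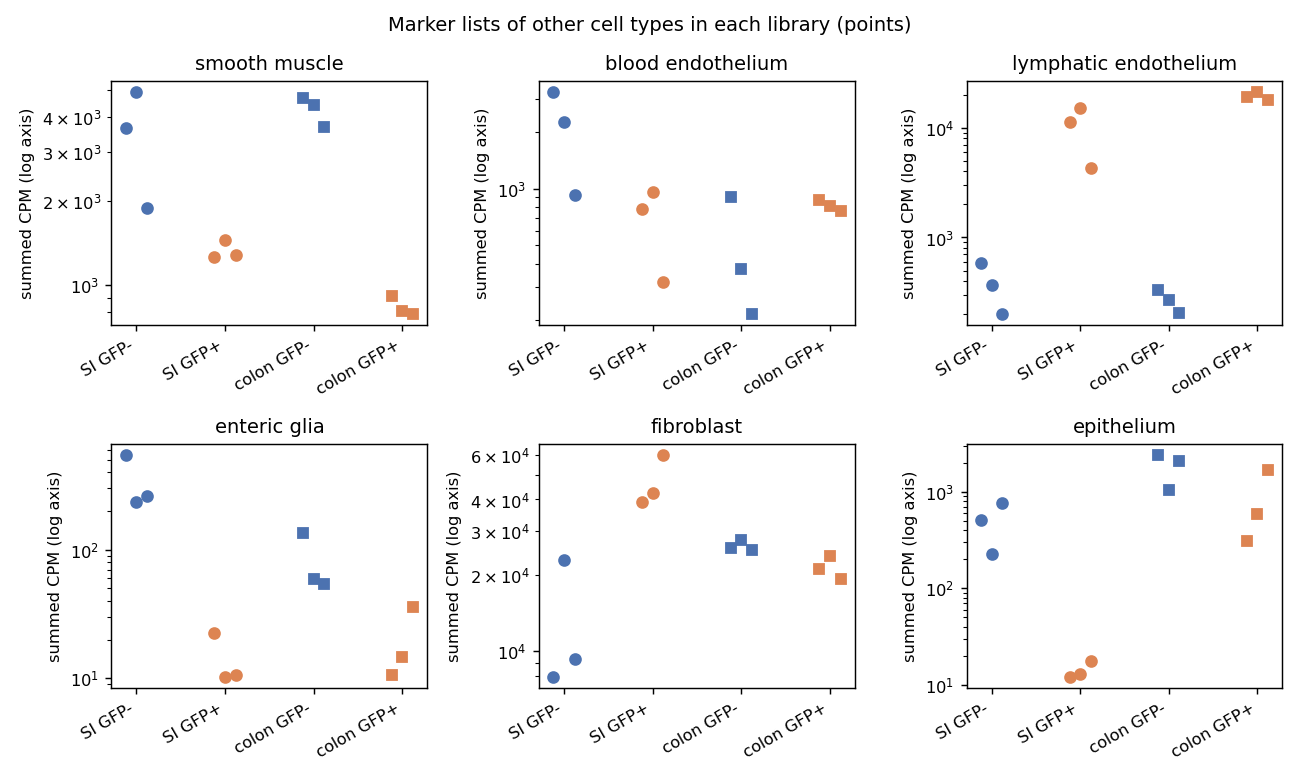
Summed CPM of 6 lists of markers of other cell types in each library, on log axes (blue GFP-negative, orange GFP-positive; circles small intestine, squares colon). Smooth muscle sums are lower and lymphatic sums higher in the GFP-positive libraries of both tissues, and fibroblast sums are higher in those of the small intestine, at 39223 to 60124 CPM.

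In the RefSeq windows of 300 bases around the start, which matched 5 of the 7 members (Cspg4, Rgs5, Kcnj8, Abcc9 and Mcam), 5 motifs were searched on both strands. The GC box CCGCCC lay in the windows of Cspg4, Mcam and Abcc9, and in 35.6% of all 32817 windows. In Cspg4 its copies began 120 and 85 bases before the RefSeq start. TGGGAA lay in the windows of Abcc9, 221 bases before the RefSeq start, and Kcnj8, at the start itself beyond the bases shown, and in 25.6% of all windows. For Cspg4 and Abcc9 the RefSeq start lies inside the gene positions given above. The bases shown end at the edge of the gene, so these distances do not count from their last base. The E-box CANNTG lay in the windows of Rgs5, Kcnj8, Abcc9 and Mcam, and in 72.3% of all. The TATA box TATAAA (13.6% of all windows) and the CArG box of serum response factor (1.63%) were in none of the 5. These are matches of letters and not known sites.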

How the data were processed

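The 7 genes and all comparison lists were chosen with earlier results of these data known. Per the submitters' processing notes, the authors used Salmon 1.1.0, R 3.6.1 and mm10. The authors deposited estimated counts per gene, all whole numbers, and log2(TPM + 1). Annotation, rounding and strand are not given in the sources used here. Of 32052 identifiers 31974 matched a GENCODE M21 symbol.

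Counts of all 12 libraries entered 1 fit (edgeR 4.0.16, R 4.3.3, robust quasi-likelihood, TMM, filterByExpr minimum count 10), which was tested on simulated data. The 16757 tested genes were adjusted together by Benjamini-Hochberg. The SE is the log2 fold change divided by the root of F. CPM use TMM sizes. Compared were the GFP fractions of each tissue, the tissues' 2 GFP effects, and colon with small intestine in each fraction (5 comparisons).

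Same-numbered small intestinal libraries deviated together (r of 0.323, 0.179 and 0.166 over genes). Between different numbers of the 2 fractions r was -0.156 to -0.028, so the numbers were read as pairing the libraries. The main calls do not use this pairing. In the colon r was lower (0.009, 0.047 and 0.090) and not clearly apart from the -0.125 to 0.081 between different numbers. The labels still give a shared sample number to the fractions of replicate 2 and to those of replicate 3. Blocked values are therefore given for both tissues. Replicate 3 shares 1 number across the tissues (r of 0.223 between its GFP-negative and 0.054 between its GFP-positive libraries). Alternatives used DESeq2 1.42.0, limma 3.58.1 on log2 TPM, other normalization, filter and samples, a replicate block, and each library left out. Named genes were the 7 members, up to 4 genes per list with the smallest adjusted p (the channel, RGS, NDUFA4 and Notch lists whole) and the genes nearest in pattern. No 2 libraries were alike: at most 0.741% of genes over 100 counts were equal.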

Additional observations from a re-analysis of the deposited data

Results flagged for a closer look

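The GFP effect on Mcam differed between the tissues by a test of the difference itself. The interaction, colon minus small intestine, was 2.80 on the log2 scale (adjusted p = 0.0271), with a difference of -3.49 for the small intestine and -0.69 for the colon. All 3 small intestinal GFP-positive libraries were below all GFP-negative ones, and the colonic groups overlapped. The interaction call of Mcam was lost in 7 of the 12 fits without a library (up to 0.0835). It was also lost with limma on log2 TPM.

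The GFP effects of other named genes differed between the tissues by the same test, colon minus small intestine on the log2 scale: Itga7 by 3.47 (adjusted p = 0.0424), Ednra by -2.79 (0.0424), Jag1 by 2.75 (0.0301), Tek by 2.61 (0.0262), Angpt1 by -2.50 (0.0314), Notch1 by 2.43 (0.0431) and Ebf1 by 1.98 (0.0369). Leaving out single libraries ended the Jag1, Tek, Angpt1 and Notch1 calls in 9, 7, 7 and 9 of 12 fits, up to 0.0902, 0.0835, 0.0883 and 0.118. The Itga7, Ednra and Ebf1 calls were lost in 8, 10 and 9 of these fits, up to 0.117, 0.107 and 0.105.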

How the results depend on the processing

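Of the log2 fold changes of the 7 genes under the alternatives, 575 kept their direction and side of the threshold, 21 passed newly, 46 no longer passed and 16 changed sign; the cause was not tested. Counts are given in the order small intestine, colon, their difference, GFP-positive cells, GFP-negative cells, and were 3, 2, 1, 1 and 2 pericyte genes and 1821, 1456, 345, 765 and 706 genes in all.

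DESeq2 called 5, 3, 2, 2 and 3 pericyte genes and 2673, 2138, 1095, 1430 and 1666 in all. Fits to only the libraries compared called 2, 3, 3 and 0 pericyte genes and 772, 3000, 953 and 337 in all, with no such fit for the difference. limma on log2 TPM called 3, 2, 0, 0 and 0 pericyte genes and 671, 1154, 160, 376 and 1509 in all. There the median of all genes shifted by -0.12 for the difference, 0.29 in GFP-positive and 0.40 in GFP-negative cells, and the calls in GFP-negative cells split into 1318 higher and 191 lower, against 369 and 337. Those for the difference split into 49 and 111, against 195 and 150, and those in GFP-positive cells into 311 and 65, against 461 and 304, and in the small intestine into 343 and 328, against 710 and 1111. Without a filter on low counts 3, 1, 1, 0 and 2 pericyte genes were called, and 1783, 1386, 514, 812 and 755 in all; Rgs5 lost its colonic call (adjusted p = 0.0924) and that in GFP-positive cells (0.0771). At an unadjusted p under 0.05 edgeR had 5, 3, 4, 4 and 3 of the 7 genes.

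With the replicate block 3, 1, 1, 1 and 2 pericyte genes were called and 1931, 1535, 330, 853 and 944 in all. With the block Itga7 and Ednra did not pass the test of a difference between the tissues (0.154 and 0.139) and Rgs8 was not called in the colon (0.113). Rgs5 lost its colonic call with the block (-2.23, adjusted p = 0.0879). Beside this and the small intestinal Kcnj8 and Ndufa4l2, the block changed no call of the 7 genes. For the GFP effects and their difference the block paired the fractions within a tissue. Between the tissues it joined libraries by replicate number alone, although the labels share a sample number across the tissues only for replicate 3. Without each library in turn the pericyte calls ranged from 2 to 4, 1 to 3, 0 to 2, 0 to 2 and 0 to 2, and all calls from 1293 to 2615, 840 to 1792, 67 to 1057, 424 to 1067 and 197 to 1227. The highest counts for the small intestine (2615), the difference (1057) and GFP-negative cells (1227) came without small intestinal GFP-negative replicate 2. Without small intestinal GFP-negative replicate 3 and colonic GFP-positive replicate 3, an alternative chosen after seeing the data, 227 genes were called for the difference.

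Sign changes concerned uncalled values. Abcc9 ranged from -0.25 to 0.82 in the small intestine and from -0.17 to 0.90 in GFP-negative cells without each library, and was -0.25 and -0.17 without both libraries named above. Heyl in the colon was 0.015 with the block and ranged from -0.32 to 0.45; in GFP-negative cells it was 0.062 on log2 TPM. Kcnj8 in GFP-negative cells was 0.16 on log2 TPM and ranged from -0.94 to 0.64. Ndufa4l2 in the colon was 0.047 on log2 TPM and ranged from -0.60 to 0.23. Depth limits Ndufa4l2 most, with 20 to 170 counts per group.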
